A study of Mus musculus with 112 samples.

Results

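The genes described here are 52 transcripts of mitosis and the spindle checkpoint, listed by symbol, of which 48 were measured among 18772 genes. A gene counted as measured when a probe set of the array carried its symbol alone, and the probe set with the highest mean stood for the gene. Foxm1, Ube2c, Cenpk and Kif20a were represented by probe sets that carry several symbols and have no values here. The samples came from a skin carcinogenesis experiment in 15 male mice of the FVBBX stock, bred by crossing hybrids of Mus spretus and FVB to FVB. Per the labels, each mouse received 25 mg of DMBA, a mutagen, once at 8 weeks of age, and then 200 uL of TPA, a tumour promoter, 2 times a week. Their genotype was wild type (WT) in 9 and HrasKO, a knockout by its label, in 6. Primary tumours were resected once larger than 1 cm, and metastatic disease was present at sacrifice. RNA of 112 tissues was hybridised to Affymetrix whole-transcript arrays, and values are log2 intensities. The groups were dorsal skin (15 mice, 9 WT and 6 HrasKO), papilloma (27 arrays of 13 mice, 9 WT and 4 HrasKO), carcinoma labelled squamous (SCC, 10 arrays of 8 WT mice), carcinoma labelled spindle (12 arrays of 10 mice, 6 WT and 4 HrasKO), SCC metastasis (24 arrays of 11 mice, 8 WT and 3 HrasKO) and spindle metastasis (20 arrays of 7 mice, 3 WT and 4 HrasKO). A further 3 carcinomas and 1 metastasis of mixed histology entered no test. The labels give the same treatment for every sample, so the skins came from treated mice and no tissue was untreated. SCC carcinomas came from WT mice alone, and the sources used here do not say how the knockout was made. Hras itself was not analysed here. Replicates are mice. In comparisons paired by mouse, p-values weigh the mean difference within mice against the spread of such differences. In the others they weigh it against the spread between mice.

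Mitosis is driven by cyclin-dependent kinase 1 and its cyclins, which trigger chromosome condensation and the building of the spindle. Kinetochores attach each chromosome to spindle microtubules, and the spindle checkpoint holds back the anaphase-promoting complex until every chromosome is attached. Transcripts of these genes peak late in the cell cycle, so their level in a tissue is widely used as a measure of dividing cells. In skin such cells lie in the basal epidermis and in the growing hair follicle.

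Transcription of many such genes is known to be held down in resting cells through the cell-cycle genes homology region (TTTGAA, or TTCGAA in some genes) and activated late in the cycle through CCAAT boxes bound by NF-Y. The RefSeq table of promoters (GRCm38.p6) held 41 of the 48 measured genes. Those not in it were Ccna2, Aurkb, Incenp, Spc24, Tpx2, Dlgap5 and Cdca2. The 250 bases before each annotated start were searched on both strands, and a gene with several starts counted once. TTTGAA was found in 16 of the 41 genes (39%), against 18.3% of all 27025 genes in the table, and TTCGAA in 2 (4.88%, against 1.55%). CCAAT was found in 30 genes (73.2%, against 37.5%), and at least 2 copies of it in 19 (46.3%, against 11.5%). Both a homology region and a CCAAT box were present in 14 genes (34.1%, against 7%). A match describes the letters only, and no binding was measured.

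The stretches of 120 bases that end just before the start are printed, 5′ to 3′, for Cdk1, Cdc20, Kif11 and Top2a, which stand for 4 roles, for Bub3 and Depdc1a, each the one member past the threshold in a comparison described later, and for Anln, which had the largest difference between spindle carcinoma and papilloma. Capitals mark a homology region of either spelling or a CCAAT box, read on either strand (on the opposite strand TTTGAA reads as TTCAAA, and CCAAT reads as ATTGG).
Cdk1, chr10:69352913-69353032, minus strand: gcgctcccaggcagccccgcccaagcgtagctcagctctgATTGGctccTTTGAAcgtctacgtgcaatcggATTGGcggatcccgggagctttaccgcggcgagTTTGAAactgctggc
Cdc20, chr4:118437344-118437463, minus strand: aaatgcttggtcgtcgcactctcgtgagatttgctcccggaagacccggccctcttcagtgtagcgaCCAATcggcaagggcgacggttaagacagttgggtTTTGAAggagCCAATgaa
Kif11, chr19:37376262-37376381, plus strand: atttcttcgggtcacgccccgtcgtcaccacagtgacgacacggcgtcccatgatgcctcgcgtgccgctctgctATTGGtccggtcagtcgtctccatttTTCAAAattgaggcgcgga
Top2a, chr11:99024190-99024309, minus strand: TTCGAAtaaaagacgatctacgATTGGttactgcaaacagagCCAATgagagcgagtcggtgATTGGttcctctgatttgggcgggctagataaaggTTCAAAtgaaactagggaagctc
Bub3, chr7:131560250-131560369, plus strand: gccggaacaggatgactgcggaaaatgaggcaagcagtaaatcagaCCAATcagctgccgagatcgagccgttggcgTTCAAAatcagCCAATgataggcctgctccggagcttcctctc
Depdc1a, chr3:159495313-159495432, plus strand: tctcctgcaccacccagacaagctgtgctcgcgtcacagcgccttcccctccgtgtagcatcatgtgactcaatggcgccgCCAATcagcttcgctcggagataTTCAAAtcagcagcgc
Anln, chr9:22389207-22389326, minus strand: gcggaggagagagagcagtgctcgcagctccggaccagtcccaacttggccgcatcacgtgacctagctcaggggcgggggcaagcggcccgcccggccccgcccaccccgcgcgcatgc
All printed stretches but that of Anln held both kinds of motif, and none of the searched letters were in the Anln stretch. Bub3 has another annotated start in the table, and the 120 bases before that start held none of them. The printed genes are not typical, since 14 of the 41 genes (34.1%) held both kinds in the 250 bases searched. There Birc5 and Ndc80 held neither kind, and Plk1, Bub1 and Cenpa held CCAAT boxes alone.

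Array medians lay between 5.89 and 6.36, and no value was missing. Several tumours came from 1 mouse, so values were averaged per mouse and group, and every n counts mice. Some arrays went against their labels, as judged by their transcripts alone. Of the 27 papilloma arrays, 4 correlated best with spindle tumours of other mice (WT mice 1508 and 1984, and both arrays of 1815) and 1 with skin (HrasKO mouse 1407). By the mean of 12 epithelial markers, 5 arrays labelled SCC metastasis lay between 5.80 and 6.60, within the range of spindle metastases (5.11 to 7.18 per mouse), and 1 array labelled spindle carcinoma, of mouse 1949, lay at 11.21, among SCC carcinomas (10.70 to 11.47). Of those 5, the lymph node arrays of mouse 1706 had B cell marker means of 9.95 and 10.47. The lung arrays of mice 1616, 1664 and 1949 had lung marker means of 9.48, 9.84 and 4.53. An SCC lung metastasis of mouse 1383 had a lung mean of 10.18 with an epithelial mean of 10.69. The part of host tissue in the low epithelial means was not tested. Values without the arrays that went against their labels stand beside the results they touch. The tissues are bulk samples, in which fewer dividing cells and less RNA per dividing cell cannot be told apart.

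The mean of the 48 genes was lowest in skin and highest in spindle tumours. In skin it ran from 5.65 to 7.83 (7.05 ± 0.689, SD, n = 15), and in papillomas from 7.45 to 9.25 (8.30 ± 0.478, n = 13). It ran from 8.02 to 9.35 in SCC carcinomas (8.59 ± 0.497, n = 8) and from 8.40 to 9.38 in spindle carcinomas (8.94 ± 0.299, n = 10). Metastases lay at 7.47 to 8.68 when labelled SCC (8.24 ± 0.360, n = 11) and at 8.41 to 9.27 when labelled spindle (8.85 ± 0.339, n = 7). Only the lower end of papillomas reached into the range of skin, and every carcinoma mouse lay above the highest skin. Papillomas, SCC carcinomas and SCC metastases overlapped broadly, and the ranges of spindle carcinomas and spindle metastases overlapped as well.

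**Figure D1:**
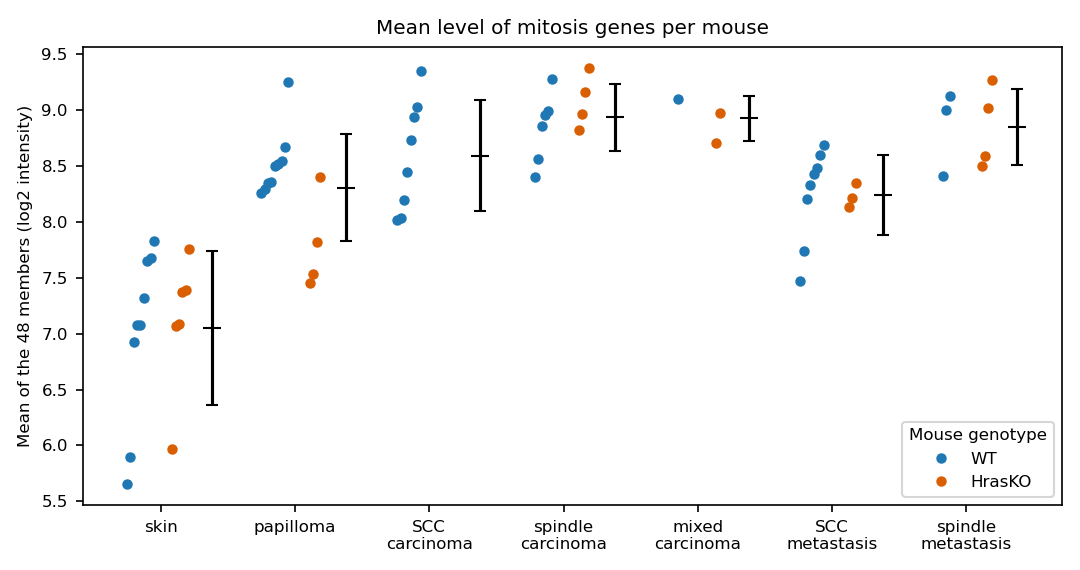
Mean log2 level of the 48 genes in each mouse (points, coloured by genotype) by tissue group, with the group mean and SD as bars. Skins lie between 5.65 and 7.83 and all carcinoma mice at 8.02 or above.

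The first comparison set the papillomas of 13 mice against each mouse's own skin. All 48 genes rose (limma, adjusted p of at most 0.0285), against 24.5% of all genes that rose and 18.1% that fell. The median change was 1.38 on the log2 scale, against 0.045 over all genes tested, and it ran from 0.64 for Ttk to 1.99 for Cdc20. Of the 48 genes, 32 were higher in each of the 13 mice (8.18% of all genes were). For Bub1, Bub3 and Cdca3 the papillomas did not overlap the skins at all (1.35% of all genes). SCC carcinomas of 8 mice were set against skin in the same way, and 44 genes rose and 0 fell (15.6% and 15% of all genes), with a median of 1.66. The 4 that missed the threshold were Aspm (adjusted p = 0.0509), Cenpf (0.0635), Kif20b (0.083) and Ttk (0.142). In spindle carcinomas and the skin of 10 mice all 48 rose (27.5% of all genes rose, 19.2% fell), with a median of 1.98. There 45 genes were higher in every mouse (13% of all genes) and 39 did not overlap the skins (3.95%), against 39 (11.1%) and 26 (3.85%) in SCC carcinomas. Without the papilloma arrays that stood apart all 48 rose in papillomas as well (median 1.36), and without the spindle carcinoma of mouse 1949 all 48 rose in spindle carcinomas (2.05). The 3 comparisons share the same skins.

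**Figure D2:**
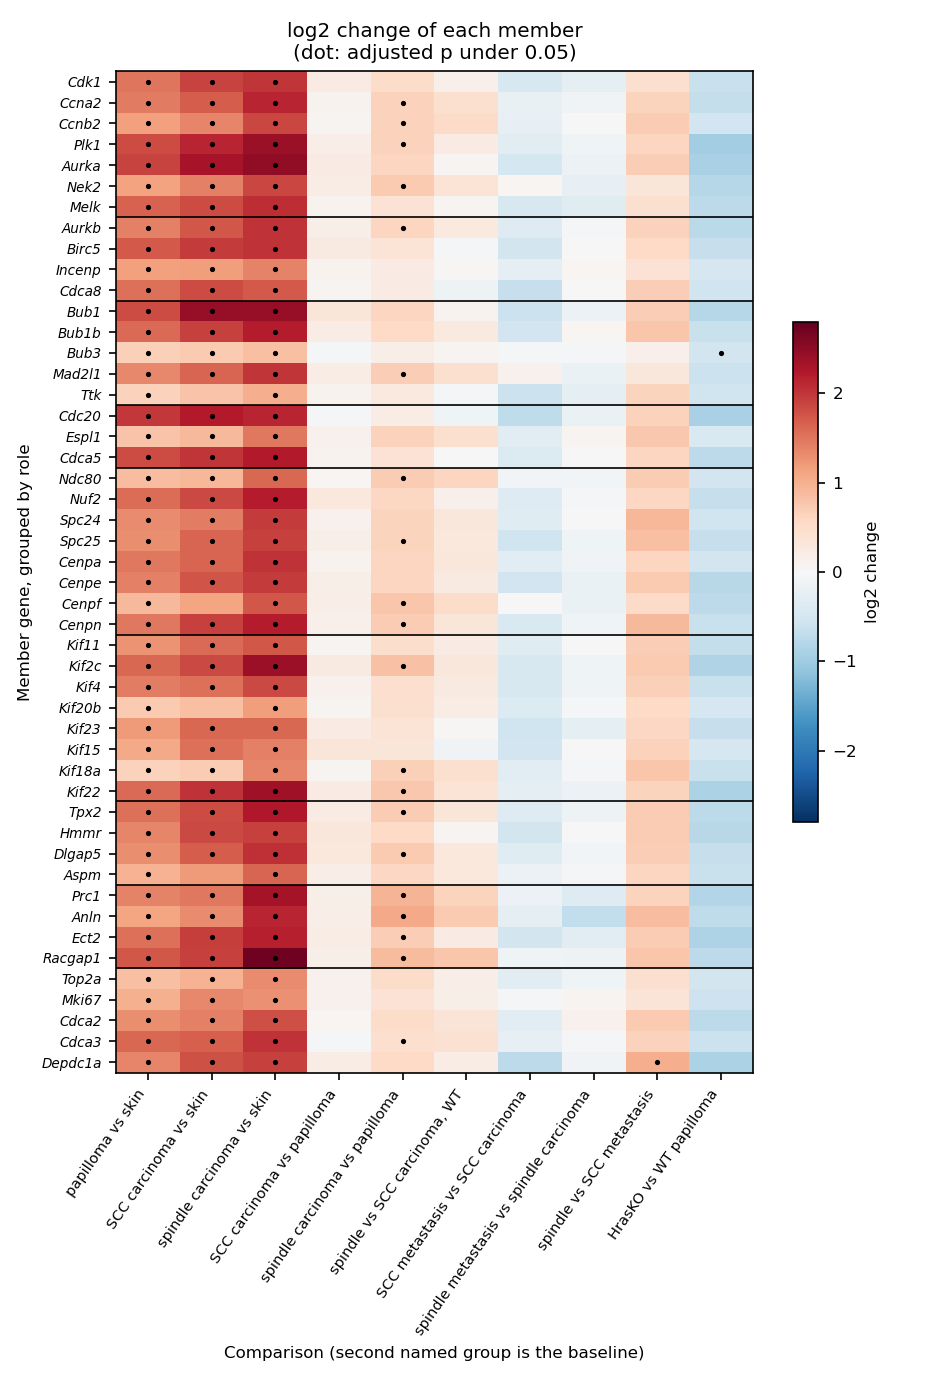
Log2 difference of each of the 48 genes (grouped by role) in 10 comparisons, with a dot where the adjusted p of limma was under 0.05. The columns of papilloma and spindle carcinoma against skin hold 48 dots each and that of SCC carcinoma 44, and spindle carcinoma against papilloma holds 20.

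The kinases and cyclins of mitotic entry rose in 7 of 7 cases in papillomas (median 1.49). Cdk1, the kinase that drives cells into mitosis, lay at 6.93, 9.12 and 9.77 in skin (lowest, median and highest mouse), 9.64, 10.41 and 11.24 in papillomas, 10.04, 10.71 and 11.40 in SCC carcinomas and 10.58, 11 and 11.27 in spindle carcinomas. Of the 15 skins, 4 reached the lowest papilloma, and no skin reached a carcinoma. Its rise in papillomas was 1.49 (SE 0.239, adjusted p = 0.000206, limma, higher in 13 of 13 mice). Ccnb2, a B-type cyclin that activates Cdk1, had 6.66, 9.46 and 9.87 in skin, 9.32, 10.18 and 11.22 in papillomas and 10.25, 10.91 and 11.34 in spindle carcinomas, a rise in papillomas of 1.14 (SE 0.270, adjusted p = 0.00355). Plk1, a kinase of centrosome maturation and mitotic exit, had 6.01, 7.41 and 8.41 in skin, 8.03, 9.24 and 9.89 in papillomas, 8.88, 9.28 and 10.51 in SCC carcinomas and 9.29, 9.71 and 10.10 in spindle carcinomas. The Plk1 rise was 1.83 in papillomas (SE 0.160, adjusted p = 2.16e-06) and 2.42 in spindle carcinomas (SE 0.215, adjusted p = 1.17e-05). Aurka, the spindle pole kinase, rose by 1.89, 2.30 and 2.48 in papillomas, SCC carcinomas and spindle carcinomas. The embryonic leucine zipper kinase Melk rose by 1.66 in papillomas, the S and G2 phase cyclin Ccna2 by 1.47 and the centrosome kinase Nek2 by 1.14.

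The chromosomal passenger complex corrects faulty attachments and guides cytokinesis. All 4 of its measured genes rose in papillomas (median 1.48). Aurkb, its kinase, had 6.52, 8.38 and 9.25 in skin, 8.52, 9.75 and 10.53 in papillomas, 9.42, 9.87 and 10.44 in SCC carcinomas and 9.70, 10.39 and 10.72 in spindle carcinomas. The papilloma rise of Aurkb was 1.40 (SE 0.198, adjusted p = 7.23e-05). Birc5, the survivin subunit, had 5.04, 6.23 and 7.16 in skin and 7.08, 8.13 and 8.86 in papillomas, a rise of 1.71 (SE 0.155, adjusted p = 2.64e-06). The Birc5 ranges of skin and papilloma overlapped only between 7.08 and 7.16. The scaffold Incenp and the subunit Cdca8 rose by 1.14 and 1.55.

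All 5 spindle checkpoint genes rose in papillomas (median 1.34). Bub1, a checkpoint kinase, had 5.21, 7.34 and 7.98 in skin and 8.01, 8.98 and 9.86 in papillomas, with no overlap and a rise of 1.84 (SE 0.260, adjusted p = 7.42e-05). It had the largest rise of all 48 genes in SCC carcinomas, 2.44 (SE 0.423, adjusted p = 0.00277). Bub3, which brings Bub1 and Bub1b to the kinetochore, varied far less, with 8.46, 8.77 and 9.00 in skin, 9.03, 9.53 and 9.67 in papillomas and 9.29, 9.62 and 9.81 in spindle carcinomas. Its papilloma rise was 0.67 (SE 0.076, adjusted p = 1.31e-05), and in spindle carcinomas it had the smallest rise of the 48, 0.84. Bub1b and Mad2l1, which inhibit the anaphase-promoting complex, rose by 1.59 and 1.34, and the kinase Ttk by 0.64 (10 of 13 mice, adjusted p = 0.0285).

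Of the 3 genes of anaphase and cohesion control, all rose in papillomas. Cdc20, the activator of the anaphase-promoting complex, had 6.12, 7.51 and 8.43 in skin, 8.31, 9.58 and 9.93 in papillomas, 8.95, 9.63 and 10.14 in SCC carcinomas and 9.204, 9.418 and 10.04 in spindle carcinomas. Its rise of 1.99 (SE 0.186, adjusted p = 3.25e-06) was the largest of the 48 in papillomas. Its ranges in papillomas and in both kinds of carcinoma overlapped throughout, and all SCC and spindle carcinomas lay above every skin. Cdca5, the sororin that protects cohesion, rose by 1.82, and Espl1, the separase that cuts cohesin, by 0.81.

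Kinetochore and centromere genes rose in 8 of 8 cases in papillomas (median 1.37). Ndc80, which binds microtubules at the outer kinetochore, had 5.92, 7.13 and 7.77 in skin, 7.03, 7.89 and 9.05 in papillomas and 7.84, 8.73 and 9.09 in spindle carcinomas, a rise of 0.86 in papillomas (SE 0.182, adjusted p = 0.00175) and of 1.61 in spindle carcinomas (SE 0.253, adjusted p = 0.00038). Cenpa, the centromeric histone, had 6.495, 8.327 and 9.155 in skin and 8.41, 9.64 and 10.01 in papillomas, a rise of 1.48 (SE 0.211, adjusted p = 7.93e-05). The skins and papillomas overlapped in both genes. The other members of the Ndc80 complex, Nuf2, Spc24 and Spc25, rose by 1.56, 1.33 and 1.29, the kinetochore motor Cenpe by 1.42, and Cenpn and Cenpf by 1.48 and 0.91.

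Kinesin motors rose in 8 of 8 cases in papillomas (median 1.23). Kif11, which pushes the spindle poles apart, had 5.30, 7.95 and 8.59 in skin, 7.93, 8.90 and 9.54 in papillomas and 8.62, 9.35 and 9.85 in spindle carcinomas, a papilloma rise of 1.25 (SE 0.254, adjusted p = 0.00121, 12 of 13 mice). Kif2c, which dismantles microtubules at wrong attachments, and Kif22, which moves chromosome arms, rose by 1.60 and 1.59, and Kif18a, which damps chromosome movement, by 0.65. All 4 genes of spindle assembly rose as well. Tpx2, the activator of Aurka, had 5.51, 7.07 and 7.91 in skin, 7.53, 8.46 and 9.62 in papillomas and 8.56, 9.26 and 9.65 in spindle carcinomas, a papilloma rise of 1.55 (SE 0.204, adjusted p = 4.25e-05). Dlgap5, Hmmr and Aspm, which act on spindle microtubules and poles, rose by 1.31, 1.37 and 0.97.

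Midzone and cytokinesis genes rose in 4 of 4 cases. Prc1, which bundles microtubules between the parting chromosomes, had 5.64, 7.49 and 7.91 in skin, 7.49, 8.61 and 9.78 in papillomas, 8.12, 8.81 and 9.70 in SCC carcinomas and 8.89, 9.65 and 9.97 in spindle carcinomas. Its rise was 1.39 in papillomas (SE 0.184, adjusted p = 4.22e-05), 1.48 in SCC carcinomas and 2.34 in spindle carcinomas (SE 0.216, adjusted p = 1.43e-05). Racgap1, a GTPase-activating protein of the cleavage furrow, rose by 1.74 in papillomas and had the largest rise of the 48 in spindle carcinomas, 2.73 (SE 0.312, adjusted p = 5.18e-05). Ect2, which activates the GTPase RhoA at the furrow, rose by 1.54 in papillomas, and Anln, an anillin of the contractile ring, by 1.10.

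Of the 5 remaining genes, Top2a and Mki67, the 2 most often used to mark dividing cells, rose less than most. Top2a, the DNA topoisomerase that untangles sister chromatids, had 6.96, 9.03 and 9.59 in skin, 8.58, 9.59 and 10.44 in papillomas and 9.09, 10.13 and 10.59 in spindle carcinomas, a papilloma rise of 0.84 (SE 0.229, adjusted p = 0.00867, 10 of 13 mice). Mki67, the Ki-67 antigen of the mitotic chromosome surface, had 7.07, 9.34 and 10 in skin, 9.22, 10.02 and 10.63 in papillomas and 9.81, 10.42 and 10.78 in spindle carcinomas, a rise of 1.00 (SE 0.227, adjusted p = 0.00273, 11 of 13 mice). For Top2a 11 of the 15 skins lay within the papilloma range, and for Mki67 10 did. Cdca3, Depdc1a and Cdca2 rose by 1.61, 1.36 and 1.31.

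The changes against skin moved with the tissue content of the skins. The labelled skin carried its epithelial markers in every mouse (list means of 9.58 to 11.39). The 3 skins with the lowest mean of the 48 genes, of mice 1383 (5.65), 1508 (5.89) and 1706 (5.97), also had the highest means of 14 skeletal muscle markers, 11.02, 11.27 and 11.41. Over all skins the muscle mean ran from 5.11 to 11.41, against 4.78 to 8.00 in papillomas, and all 14 markers fell in papillomas. Of 8 adipocyte markers 7 fell (median -3.23), with list means of 6.80 to 11.36 in skin and 5.43 to 7.37 in papillomas. Of 18 hair follicle markers, which also mark a site of cell division, 15 fell (4.56 to 11.33 in skin, 4.66 to 6.78 in papillomas). Without the 3 muscle-rich skins, 44 of the 48 genes rose in papillomas (median 1.12), 40 in SCC carcinomas (1.22) and 48 in spindle carcinomas (1.59). These 3 skins were chosen after their values were seen, and the part of hair follicles and of fat in the changes was not tested.

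**Figure D3:**
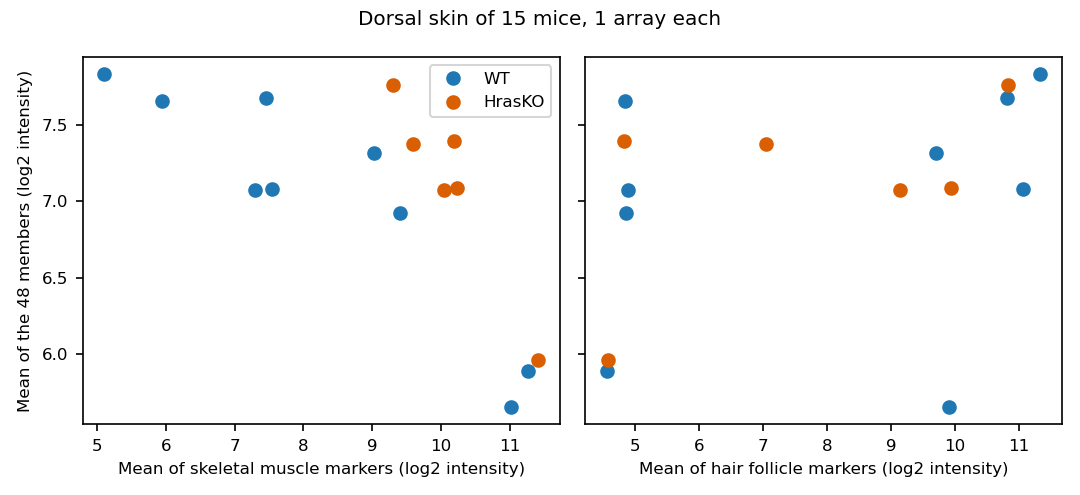
Mean log2 level of the 48 genes in the 15 skins against the mean of skeletal muscle markers and of hair follicle markers. The 3 skins with muscle means above 11 have the lowest means of the 48 genes, 5.65 to 5.97.

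Next, SCC carcinoma and papilloma were contrasted within each of 8 mice. None of the 48 genes passed the threshold in either direction (limma), as against 0.0107% of all genes higher and 0.192% lower, and 0 of the 48 had an unadjusted p under 0.05 (9.42% of all genes had). The differences ran from -0.06 for Cdca3 to 0.34 for Kif15, a kinesin of the spindle (SE 0.188, adjusted p = 0.649), with a median of 0.16, and 45 were above 0. Bub1 had a difference of 0.34 (SE 0.201), Hmmr of 0.31 and Nuf2 of 0.29, and those closest to 0 were Cdc20 at -0.02 (SE 0.167) and Bub3 at -0.04. The mean of the 48 genes was higher in the carcinoma of 4 of the 8 mice, and its differences ran from -0.52 to 0.996. Without the papilloma arrays that stood apart none of the 48 genes passed either (median 0.16).

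For spindle carcinoma and papilloma, 9 mice had both, HrasKO mice 1407, 1509 and 1664 and the others WT. Here 20 of the 48 genes rose and 0 fell, against 12.6% of all genes higher and 11.2% lower, and all 48 differences were above 0 (median 0.61). In these HrasKO mice the mean of the 48 genes was 7.82, 8.40 and 7.45 in papillomas and 9.16, 9.38 and 8.82 in spindle carcinomas. WT mice 1383, 1508, 1815, 1949, 1984 and 2022 had 8.355, 8.29, 9.25, 8.52, 8.67 and 8.50 in papillomas. Their spindle carcinomas had 9.275, 8.99, 8.95, 8.56, 8.85 and 8.40, in the same order. The genotypes were not compared in this change. The midzone and cytokinesis genes rose in 4 of 4 cases, entry kinases and cyclins in 4 of 7, kinetochore genes in 4 of 8, kinesins in 3 of 8, spindle assembly genes in 2 of 4, and checkpoint, passenger and remaining genes in 1 case each. None of the 3 genes of anaphase and cohesion control rose. The largest rise was that of Anln, which lay at 8.32, 9.62 and 11.04 in papillomas and at 9.97, 10.97 and 11.21 in spindle carcinomas, a change of 1.07 (SE 0.238, adjusted p = 0.0148, 8 of 9 mice). Prc1 rose by 0.95 (SE 0.231, adjusted p = 0.0191), Racgap1 by 0.88 (SE 0.204, adjusted p = 0.016) and Kif2c by 0.82 (SE 0.243, adjusted p = 0.0368). The smallest differences were those of Bub3, 0.20 (SE 0.109, adjusted p = 0.225), and Cdc20, 0.21 (SE 0.171, adjusted p = 0.426). Mad2l1 rose by 0.69 (SE 0.152, adjusted p = 0.0141), Kif22 by 0.75, Dlgap5 by 0.74, Nek2 by 0.73, Tpx2 by 0.72, Ndc80 by 0.72 and Plk1 by 0.65.

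The groups overlapped in every one of the 48 genes, and none was higher in all 9 mice. The papillomas of mouse 1815 had the highest Anln (11.04), Prc1 (9.78) and mean of the 48 genes (9.25) of all papilloma mice, and they were among those that correlated best with spindle tumours. Without mouse 1815, 33 of the 48 genes rose (median 0.70). The count was 26 without the papilloma arrays that stood apart and 23 without the spindle carcinoma of mouse 1949. It fell to between 3 and 8 without mouse 1383, 1407, 1508, 1509, 1664 or 1984, and to 4 in batch 1 alone. It was 0 in the 5 mice left without carcinomas whose title holds RegCA, a term the sources used here do not define, where all 48 differences remained above 0 (median 0.85). The mice left were WT 1383 and 1815 and all the HrasKO mice of the comparison, 1407, 1509 and 1664. Over the same comparison all 12 epithelial markers fell (median -3.16), and 6 of 10 macrophage markers rose (7.76 to 10.30 in papillomas, 8.51 to 10.83 in spindle carcinomas). The part of macrophages and of lost epithelial cells in the rise was not tested.

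**Figure D4:**
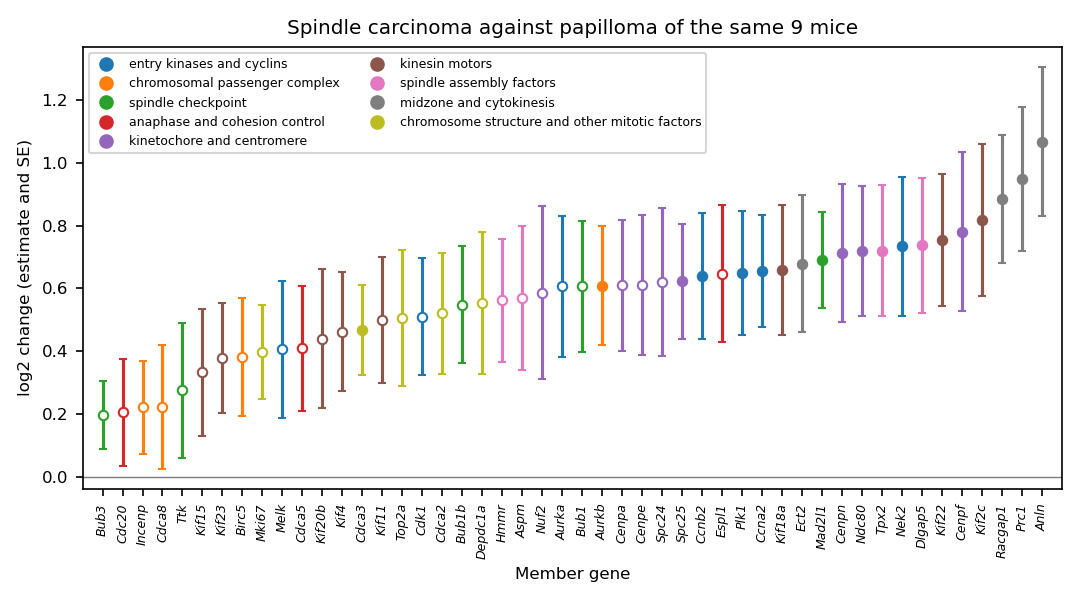
Log2 difference between spindle carcinoma and papilloma of 9 mice for each of the 48 genes, with its SE, filled where the adjusted p of limma was under 0.05. Estimates run from 0.20 (Bub3) to 1.07 (Anln), and 20 are filled.

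Spindle and SCC carcinomas were compared directly in WT mice (6 and 8 mice, 5 with both kinds). None of the 48 genes passed the threshold (limma), against 3.47% of all genes higher and 4.09% lower in spindle carcinomas. An unadjusted p under 0.05 was found for 7 of the 48, a smaller share than the 23.8% of all genes. Racgap1 had the largest difference, 0.77 (SE 0.265, adjusted p = 0.0881), with 8.49, 9.16 and 9.98 in SCC carcinomas and 9.23, 10.09 and 10.22 in spindle carcinomas of WT mice, and the groups overlapped. Anln followed at 0.74, Prc1 at 0.63 and Ndc80 at 0.61, and Cdca8 was lowest at -0.14. Differences were above 0 for 42 genes (median 0.26). Without mouse 1949, whose spindle carcinoma carried high epithelial markers, 6 of the 48 genes were higher, and 2 were when that carcinoma alone was left out.

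SCC metastases were set against SCC carcinomas of the same 8 mice. No member passed (limma), against 1.81% of all genes higher and 2.74% lower. An unadjusted p under 0.05 was found for 12 of the 48, near the share of all genes (21.8%). The differences were below 0 for all members but Mad2l1 and Nek2, with a median of -0.35. The lowest were Depdc1a, a gene of mitotic progression, at -0.74 (SE 0.227, adjusted p = 0.0946), Cdc20 at -0.71 (SE 0.207, adjusted p = 0.08), Cdca8 at -0.64 and Bub1 at -0.61. Mad2l1 lay at 0.11 and Nek2 at 0.06. Cdc20 had 8.41, 8.78 and 9.64 in SCC metastases. Its range reached above the lower SCC carcinomas, so the groups overlapped. Without the arrays that went against their label the median was -0.31 in 7 mice, and none passed. Leaving out mouse 1508 or 2104 brought 1 gene past the threshold, lower in metastases. Markers of the host organs were higher in these metastases, with medians of 1.14 for 8 B cell, 1.10 for 7 T cell and 1.11 for 11 lung markers, of which 3, 1 and 1 rose. The part of host tissue in the lower values was not tested.

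Spindle metastases did not differ detectably from spindle carcinomas of 7 mice, with 0 of the 48 genes past the threshold (limma, 0% of all genes in either direction). An unadjusted p under 0.05 was found for 0 of the 48, against 13.3% of all genes. The median difference was -0.10, and it ran from -0.69 for Anln (SE 0.385, adjusted p = 0.465) to 0.12 for Cdca2. Prc1 lay at -0.35, Melk at -0.33 and Ect2 at -0.30. Without the spindle carcinoma of mouse 1949 the median was -0.21 in 6 mice, and none passed. By site, the mean of the 48 genes was 9.56 in the 1 thymus metastasis, 9.27 to 9.38 in 3 from spleen, 8.63 to 9.24 in 11 from lymph nodes and 8.37 and 8.59 in 2 from lung. It was 7.56 and 9.08 in 2 from liver and 7.09 in the 1 from kidney. Sites and mice were not balanced, and these values are given without a test.

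Spindle metastases were also compared with SCC metastases (7 and 11 mice, with genotype as a covariate). All 48 differences were above 0 (median 0.65), and 43 had an unadjusted p under 0.05, against 18% of all genes. Of the 48, only Depdc1a passed the threshold, against 0.0426% of all genes higher and 0.0266% lower. It had 5.86, 6.47 and 7.21 in SCC metastases and 6.98, 7.54 and 7.78 in spindle metastases, a difference of 1.03 (SE 0.173, adjusted p = 0.0461, limma). The groups overlapped only through mouse 1456, the highest of the SCC side, which lay above 3 spindle mice. The kinetochore genes Spc24 and Cenpn followed at 0.94 and 0.90 (adjusted p = 0.0672 and 0.0619) and Anln at 0.87 (adjusted p = 0.24), and the smallest were Bub3 at 0.15 and Mad2l1 at 0.32. The number of genes past the threshold was not stable, from 0 without mouse 1383, 1407, 1456, 1616, 1664, 1717, 1984, 2022 or 2104 to 13 without mouse 1509. The Depdc1a call was lost in those 9 cases, with adjusted p of 0.05 to 0.164. Without the 5 SCC metastasis arrays whose epithelial markers went against the label, and with no mouse block, none of the 48 genes passed, the median was 0.36 and 9 had an unadjusted p under 0.05. Lung markers were lower in spindle metastases (median -1.54 over 11), which came from lung in 2 of 20 arrays, against 7 of 24, and their part was not tested.

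Lung metastases were compared with lymph node metastases of the same mice, with histology as a covariate. No gene passed (limma, 0% of all genes in either direction), and 0 of the 48 had an unadjusted p under 0.05 (6.15% of all genes had). The median was -0.25, and the differences ran from -0.49 for Cenpf (SE 0.376) to 0.07 for Mki67. The mean of the 48 genes, taken without the covariate, was higher in the lung metastases of 2 of the 8 mice. In mice 1664, 1949 and 1984 a lung metastasis labelled SCC (8.35, 8.42 and 7.74) was set against lymph node metastases labelled spindle. Those had 8.68 and 8.75 in mouse 1664, 8.97 to 9.18 in mouse 1949 and 9.00 in mouse 1984. With mouse as a block, mice of this kind set the histology term and add nothing to the site estimates. The site estimates rest on mice 1383, 1456, 1537, 1616 and 1717. Without the arrays that went against their label, 5 mice were left, the median was 0.07 and 31 of the 48 differences were above 0. Mouse 1616 was then lost, and 1984 again set only the histology term.

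The genotypes were compared within each tissue, with batch as a covariate. Batch 2 held WT mouse 1456 and HrasKO mouse 1664 alone. In skin none of the 48 genes passed (0.00533% of all genes higher and 0% lower, limma). The median difference of HrasKO from WT was 0.11, from -0.30 for Birc5 to 0.66 for Cenpn (SE 0.303, adjusted p = 0.444). The mean of the 48 genes was 7.01 ± 0.768 in 9 WT and 7.11 ± 0.614 in 6 HrasKO skins, a difference smaller than the SD within either genotype.

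In papillomas all 48 differences between HrasKO and WT were below 0, with a median of -0.64, and 47 had an unadjusted p under 0.05, against 5.11% of all genes. After adjustment only Bub3 was lower (0% of all genes were higher and 0.00533% lower), the single gene of 18772 that passed. Bub3 lay at 9.03, 9.06, 9.06 and 9.09 in the 4 HrasKO mice and at 9.48, 9.59 and 9.67 in the 9 WT mice (lowest, median and highest), a difference of -0.52 (SE 0.057, adjusted p = 0.0188, limma). The genotypes did not overlap in Bub3 or in Kif2c (0.256% of all genes were lower without overlap). Plk1 had the largest difference, -0.97 (SE 0.221, adjusted p = 0.599), with 8.03, 8.03, 8.18 and 9.11 in HrasKO and 8.74, 9.31 and 9.89 in WT mice. Cdc20 lay at 8.31, 8.47, 8.48 and 9.41 in HrasKO and at 9.08, 9.67 and 9.93 in WT mice, a difference of -0.92 (SE 0.199, adjusted p = 0.581). Of both genes the papillomas of HrasKO mouse 1509 were the highest and lay within the WT range, and those of the other 3 HrasKO mice lay below every WT mouse. Aurka and Kif22 differed by -0.91 and -0.89, and the smallest differences were those of Espl1, -0.44, and Kif20b, -0.46.

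By role, the papilloma medians ran from -0.59 in checkpoint genes to -0.78 in midzone and cytokinesis genes. The mean of the 48 genes was 7.45, 7.53, 7.82 and 8.40 in HrasKO mice 1664, 1706, 1407 and 1509, and 8.26 to 9.25 in WT mice. Papillomas of 1 mouse could differ as much as the genotypes did. The 2 papillomas of mouse 1706 had means of 6.83 and 8.23 and those of mouse 1407 had 7.09 and 8.54, whereas those of WT mouse 2104 had 8.54 each. In both HrasKO mice the lower array was the one rich in skeletal muscle markers, with list means of 10.62 and 10.64, against 4.92 and 4.84 in the other papilloma of the same mouse. Of the 6 papilloma arrays with a muscle mean above 7, the other 4 came from WT mice (7.459 to 9.197). Over all papillomas the muscle markers differed in the opposite direction from the 48 genes in 14 of 14 cases (median 1.02). Without the 2 HrasKO arrays above 10 the median difference of the 48 genes was -0.27 in place of -0.64, 7 had an unadjusted p under 0.05 in place of 47, and none passed, with Bub3 at -0.41 (adjusted p = 0.16, limma). Without all 6 arrays the median was -0.23, 10 had an unadjusted p under 0.05, and Bub3 lay at -0.43 (adjusted p = 0.257). All 48 differences stayed below 0 in both cases. These arrays were chosen after seeing the data, by their muscle markers. The papillomas of mouse 1664, at 7.13 and 7.77, were low with muscle means of 5.35 and 4.74. The Bub3 call was lost without the papilloma arrays that stood apart (-0.43, adjusted p = 0.732), in batch 1 alone (-0.52, adjusted p = 0.153), or without any one of mice 1383, 1407, 1456, 1508, 1664, 1706, 1949, 1984 and 2104 (adjusted p of 0.0567 to 0.198). Without mouse 1509, 7 of the 48 genes were lower in HrasKO papillomas.

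**Figure D5:**
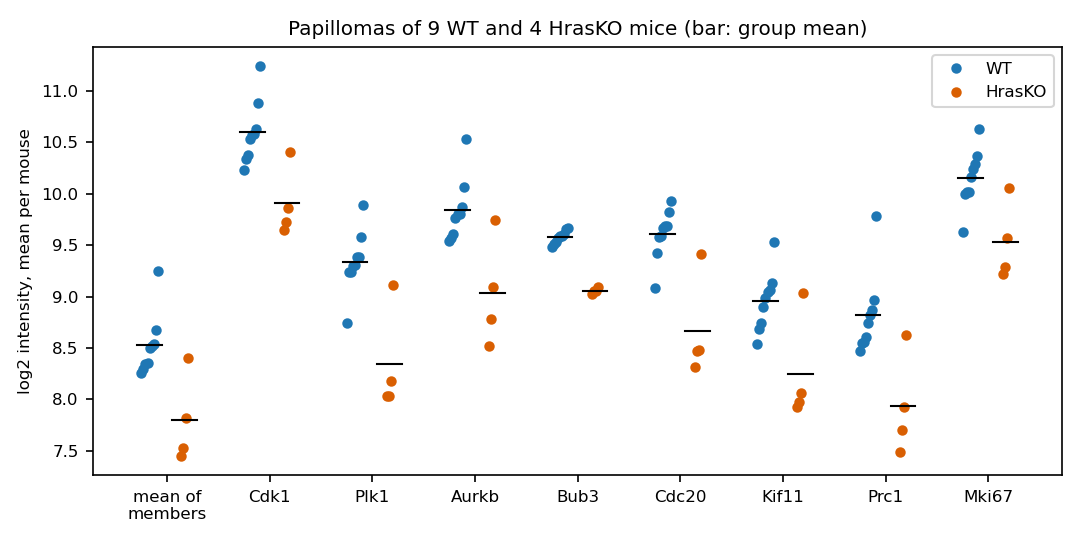
Log2 levels in papillomas of 9 WT and 4 HrasKO mice (1 point per mouse) for the mean of the 48 genes and 8 members. The genotypes do not overlap in Bub3, and 1 HrasKO mouse, 1509, lies within the WT range in Plk1, Cdc20 and Kif11.

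The change from skin to papilloma of the same mice, compared between genotypes, gave differences below 0 for 46 of the 48 genes (median -0.48). None passed the threshold (limma, 0% of all genes), and 3 had an unadjusted p under 0.05 (7.56% of all genes had). Without the 2 muscle-rich HrasKO papilloma arrays 17 were above 0 (median -0.096), and without the papilloma arrays that stood apart 8 were (-0.25). Among spindle carcinomas and spindle metastases no WT mouse was in batch 2, so the batch covariate took up HrasKO mouse 1664. The estimates there rest on the other HrasKO mice. Over all mice, without the covariate, the mean of the 48 genes differed by 0.24 and -0.003. In spindle carcinomas 47 differences were above 0 (median 0.32), from -0.04 for Bub3 to 0.64 for Nuf2, and in spindle metastases the median was -0.05. In SCC metastases it was -0.07, but 4 of the 6 HrasKO arrays there went against their histology label, among them the only array of mouse 1664. Without the arrays that did so, 2 HrasKO and 7 WT mice were left. Then 47 of the 48 differences were above 0 (median 0.87), and 27 had an unadjusted p under 0.05. The share of all genes was not counted in this fit. With every array 1 of the 48 had such a p, against 12.6% of all genes. WT mouse 1456 was then alone in batch 2, so the covariate took it up and the estimates rest on the other WT mice. The HrasKO side then held 1 array each of mice 1616 and 1706. The 4 HrasKO arrays left out had B cell marker means of 8.02 to 10.72, and the 2 kept had 5.445 and 6.80. The part of host tissue in this change of the median was not tested. None of the 48 genes passed in these 3 tissues, with or without the arrays that went against their label (limma). Over all genes, 0% were called in spindle carcinomas and spindle metastases, and 0.0479% were higher and 0.107% lower in HrasKO SCC metastases.

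Over the 112 arrays each gene correlated with the mean of the other members at r between 0.804 (Bub3) and 0.985 (Dlgap5), with a median of 0.949, and 44 genes had r over 0.9. With the 97 tumour arrays centred on their group means the median was 0.933 and the lowest 0.657, and the 1128 pairs of genes had a median of 0.862. Arrays share mice and array processing, so these values describe and do not test. The lowest after Bub3 were Anln (0.816) and Ttk (0.819). Among genes outside the list, those closest to its mean were Knl1 (0.980), Sgo1, Spag5 and Ncaph (0.977 each), Ska3 (0.973), Kif18b (0.972), Cdc25c (0.970) and Ncapg (0.967).

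Other genes of cell division, from lists that leave out the 48, were counted in the same fits. In papillomas against skin, where 24.5% of all genes rose and 18.1% fell, 20 of 23 further mitotic regulators rose and 0 fell (median 0.96), among them E2f8 at 2.30 and the MuvB partner Mybl2 at 1.63. Of 26 further kinetochore and centromere genes 23 rose and 1, Clasp2, fell by 0.47 (median 0.61), with Ska3 at 1.54 and Sgo2a at 1.32. Of 21 spindle and cytokinesis genes 14 rose, with Kif18b at 1.81 and Cep55 at 1.69, and Numa1 fell by 0.24. Condensin, which compacts chromosomes, rose in 7 of 8 subunits (Ncapd2 1.44, Ncapg 1.31), and DNA replication genes rose in 21 of 23 cases (Mcm5 1.74, Rrm2 1.71). Of 10 genes of cohesin, the ring that holds sister chromatids together, 4 fell and 0 rose (median -0.27), a count too small to set against the share of all genes, with Stag2 at -0.65 and Smc3 at -0.47. Of 11 subunits of the anaphase-promoting complex 4 rose and 0 fell, Anapc1 by 0.32 and Anapc2 by 0.30. Of 14 cell-cycle inhibitors 4 rose and 4 fell, near the shares of all genes, with Cdkn2a at 1.82 and Rbl1 at 0.97, and with Rbl2 at -1.001 and Cdkn1c at -0.96.

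In spindle carcinomas against papillomas, where 12.6% of all genes rose and 11.2% fell, mitotic regulators rose in 9 of 23 cases (E2f1 1.07, Mastl 0.80), spindle and cytokinesis genes in 10 of 21 with 2 lower (Pimreg 1.28, Troap 0.99, Psrc1 -0.87, Ndel1 -0.44), kinetochore genes in 7 of 26 (Ska3 0.77, Kntc1 0.74) and DNA replication genes in 5 of 23 (Cdc45 0.81, Mcm6 0.64). Condensin rose in 4 of 8 (Ncaph 0.61, Ncapd2 0.57), the anaphase-promoting complex in 4 of 11 (Anapc11 0.60, Anapc5 0.42) and cohesin in 2 of 10, with Pds5b at 0.95, Rad21 at 0.42 and Wapl lower at -0.27. Among inhibitors Cdkn2c and Cdkn1b rose by 0.75 and 0.45, and Btg2 and Cdkn1a fell by 0.96 and 0.57. In papillomas of HrasKO against WT mice no gene of these lists passed, and the medians were -0.47 for mitotic regulators, -0.54 for spindle and cytokinesis genes, -0.52 for condensin and -0.37 for DNA replication, against 0.06 for cohesin and -0.07 for the anaphase-promoting complex.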

How the data were processed

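Values are log2 intensities of 112 arrays (28204 probe sets), which the authors deposited after RMA, per the submitters' processing notes. RMA subtracts background, quantile-normalises and summarises probes, which compresses low signals. For the RMA version and for any batch correction the status is: not given in the sources used here. Probe sets with 1 symbol gave 18772 genes, each by its highest-mean set. Arrays were averaged per mouse and group. The number of arrays limits the precision. Comparisons used limma 3.58.1 in R 4.3.3 (lmFit, eBayes) over all 18772 genes, two-sided, with Benjamini-Hochberg adjustment and a threshold of 0.05. Tissues of the same mouse were paired by mouse as a fixed block; spindle against SCC used mouse as a random block, and genotype tests had batch as a covariate. The scripts were tested on simulated data. Members and lists were chosen with earlier results of these data known. Full values are given for fixed members of each role and, per comparison, the 4 largest and 2 smallest changes; of other lists, the 2 largest rises and falls past the threshold; and the 8 genes outside the list closest to its mean. Alternatives changed the block, batch, probe set rule, filter, normalisation, eBayes settings and the arrays or mice used.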

Additional observations from a re-analysis of the deposited data

Results flagged for a closer look

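Single mice lay far from the others of their set for 18 of 192 values examined. A set was 1 tissue group, taken for each genotype alone and for both together where the number of mice allowed. SCC carcinomas, of WT mice alone, were therefore examined in both ways. All of the 18 were in sets of a single genotype. Chance flags about 1 in 20 groups, but the genes of a mouse vary together, so the values are not independent and the number is not read against that share. In HrasKO skin, mouse 1706, a muscle-rich skin, was low for Birc5 (5.04), Kif11 (6.49), Tpx2 (5.51), Top2a (6.96) and Mki67 (7.58). In WT papillomas mouse 1815, whose arrays correlated best with spindle tumours, was high for the mean of the 48 genes (9.25, against 8.26 to 8.67 in the other mice), Ccnb2 (11.22), Bub1 (9.86), Ndc80 (9.05), Tpx2 (9.62), Prc1 (9.78) and Top2a (10.44). In HrasKO papillomas mouse 1509 was high for Plk1 (9.11), Cdc20 (9.41) and Kif11 (9.03). In HrasKO spindle carcinomas mouse 1664 was low for Bub1 (9.48) and mouse 1509 high for Kif11 (9.85). In WT SCC metastases mouse 2022 was low for Top2a (8.27).

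Tumours of mixed histology entered no test. The mean of the 48 genes was 8.71, 8.97 and 9.10 in the mixed carcinomas of mice 1616, 1706 and 1949, and 9.11 in the mixed metastasis of mouse 1508, all above the highest skin (7.83).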

How the results depend on the processing

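Of 622 counts of members called under an alternative, 572 stayed within 1.5 times the reported count and 50 moved, and no difference of a called member changed sign. Most reported counts were 0, and a 0 that stayed 0 is among the 572. The total therefore does not measure how stable the counts above 0 were. Alternatives that left out arrays going against their histology label or muscle-rich skins or papillomas, or that dropped the block with such arrays or RegCA carcinomas, were chosen after seeing the data. For spindle carcinoma against papilloma (20 higher), the count was 4 in batch 1 alone, 0 without carcinomas titled RegCA and 3 to 33 with each mouse left out. For spindle against SCC carcinoma (0 higher), it was 2 without the array going against its label and 0 to 6 with each mouse left out. For SCC metastasis against carcinoma (0 lower), it was 3 on individual arrays, 1 with no replicate block and 0 to 1 with each mouse left out. For spindle against SCC metastasis (1 higher), it was 15 on individual arrays, 0 with no replicate block, 19 with a filter on low values, 0 with eBayes trend and robust settings, 0 in batch 1 alone, 10 in lymph node metastases alone, 0 without arrays going against their label and with no replicate block, and 0 to 13 with each mouse left out. For HrasKO against WT papilloma (1 lower), it was 0 on individual arrays, with the filter, in batch 1 alone, without papillomas that stood apart, and without papillomas with a muscle marker mean above 10 or above 7, and 0 to 7 with each mouse left out. Dropping the mouse pairing (no replicate block) gave 26 for spindle carcinoma against papilloma and 45 for SCC carcinoma against skin, and changed no other count than those given. The causes were not tested. Group sizes of 3 to 13 mice limit what small differences could pass.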
